A study of Homo sapiens with 6 samples.

Results

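The translation initiation and elongation factors form a family of genes whose symbols begin with EIF1 to EIF6 or with EEF. Members here were the rows of the retained intron and skipped exon tables with such a symbol, other than EIF4A3, that held a mean of at least 20 junction reads per library. They came to 185 of 21158 retained introns, in 38 genes, and 986 of 153168 skipped exon events, in 61 genes. RNA was measured in HEK293A-TOA, a line of human embryonic kidney cells, in 3 libraries that received a non-target siRNA (siNT) and 3 that received a mixture of siRNAs against SFSWAP at 40 nM (siSFSWAP). RNA was taken 5 days after transfection, no inhibitor was given to either group, and the siRNA dose of the non-target group is not given in the labels. The study lowered SFSWAP, a nuclear protein related to the SR splicing factors, to learn how it acts on introns that remain in nuclear transcripts. The labels number the biological replicates 1 to 3 in both groups, but the tables do not say which library is which, so letters a to c stand for the libraries of each group and all tests were unpaired.

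Initiation factors bring the small ribosomal subunit and the initiator tRNA to the start codon of an mRNA. The eIF4 proteins bind the 5′ cap and unwind the leader, eIF2 carries the initiator tRNA as a complex with GTP, eIF2B recharges eIF2 with GTP, and eIF3 is the large scaffold on the small subunit. Elongation factors then deliver the aminoacyl-tRNAs (eEF1A, recharged by the eEF1B subunits) and move the ribosome along the message (eEF2). Proliferating kidney cell lines make large amounts of these factors.

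The exons and introns on which the splicing results turn are shown first, 5′ to 3′ on the strand of the gene, from GRCh38. In the exon lines the exon is in capitals, with 20 intron bases before it and 10 after it in lower case. The EIF3K exon lies at chr19:38632601-38632678 (+), the EIF4H exon at chr7:74190247-74190306 (+), the EIF4G2 exon at chr11:10801661-10801774 (−), the EIF4G1 exon at chr3:184316132-184316218 (+), the EIF3M exon at chr11:32588594-32588732 (+) and the EIF1AX exon at chrX:20133957-20134007 (−). EIF4A1 is shown with both forms of its exon 10, chr17:7578165-7578244 and chr17:7578227-7578244 (+), since the shorter form is the last 18 bases of the longer one, and the 20 bases shown before the shorter form therefore belong to the longer one.
EIF3K exon 6 of 8, 78 nt: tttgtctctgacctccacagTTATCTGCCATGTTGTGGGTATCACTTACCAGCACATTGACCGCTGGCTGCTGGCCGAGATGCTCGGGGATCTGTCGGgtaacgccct
EIF4H exon 5 of 7, 60 nt: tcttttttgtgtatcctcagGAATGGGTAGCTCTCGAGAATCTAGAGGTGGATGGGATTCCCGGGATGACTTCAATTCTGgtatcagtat
EIF4G2 exon 14 of 22, 114 nt: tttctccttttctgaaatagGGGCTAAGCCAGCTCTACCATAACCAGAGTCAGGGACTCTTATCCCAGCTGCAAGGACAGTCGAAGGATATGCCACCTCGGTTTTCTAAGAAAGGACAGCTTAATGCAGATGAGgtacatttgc
EIF4G1 exon 4 of 33, 87 nt: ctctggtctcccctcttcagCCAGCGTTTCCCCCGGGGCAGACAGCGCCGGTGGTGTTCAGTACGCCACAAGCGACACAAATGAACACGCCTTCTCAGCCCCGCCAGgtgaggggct
EIF3M exon 3 of 11, 139 nt: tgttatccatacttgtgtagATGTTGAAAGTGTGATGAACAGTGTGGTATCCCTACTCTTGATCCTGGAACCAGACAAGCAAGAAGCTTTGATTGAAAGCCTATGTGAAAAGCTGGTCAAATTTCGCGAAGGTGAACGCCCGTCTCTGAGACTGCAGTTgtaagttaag
EIF1AX exon 4 of 7, 51 nt: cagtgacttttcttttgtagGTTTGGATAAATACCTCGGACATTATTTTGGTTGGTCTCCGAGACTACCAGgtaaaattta
EIF4A1 exon 10 of 11, 80 nt: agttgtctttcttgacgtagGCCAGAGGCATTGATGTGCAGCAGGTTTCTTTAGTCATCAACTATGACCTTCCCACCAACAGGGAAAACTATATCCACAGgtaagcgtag
EIF4A1 short exon 10, 18 nt: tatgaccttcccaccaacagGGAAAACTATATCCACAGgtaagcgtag

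Both of the following introns were kept less often in the siSFSWAP libraries, and they are shown whole with the GT and AG at their ends in capitals. The EIF3G intron lies at chr19:10115586-10115683 (−) and the EIF3I intron at chr1:32231020-32231114 (+). Their GC contents were 69.4% and 54.7%.
EIF3G intron 9 of 10, 98 nt: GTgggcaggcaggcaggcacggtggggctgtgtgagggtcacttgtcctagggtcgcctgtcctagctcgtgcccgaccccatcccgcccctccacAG
EIF3I intron 10 of 10, 95 nt: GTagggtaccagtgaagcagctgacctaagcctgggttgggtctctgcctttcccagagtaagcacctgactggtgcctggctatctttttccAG

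The libraries held 2767079 to 7465949 junction reads in the retained intron table and 19515010 to 55274283 in the skipped exon table, with siNT library a the deepest in both. SFSWAP had 79.7, 86.5 and 80.2 CPM of spliced reads (counts scaled to the usual common library total) in siNT and 34.7, 34.6 and 21.3 in siSFSWAP, a log2 change of -1.46 ± 0.16 (SE, adjusted p = 0.000353). Library a of siNT stood apart from b and c also in splicing: over all tested introns with a siNT inclusion of 10 to 90%, its median inclusion was 20.2%, against 27.6% and 29.9% in b and c and 17.5% to 20% in siSFSWAP. Some of the results that move without it, but not all, are given both ways. Of 6 markers of the HEK293 line, the exon table held KRT8 and KRT18, the others not being measured by it. KRT8 and KRT18 together had 137 to 179 CPM in siNT and 128 to 138 in siSFSWAP, while KRT8 alone fell by 0.36 on the log2 scale (adjusted p = 0.0148), and of 6 markers of blood, liver and differentiated kidney cells the table held 0.

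The median intron of the translation factor genes changed little in inclusion. Inclusion is the share of junction reads, divided by the length each form can be seen over, that keep the intron or exon, among the junctions of that event alone. Of 185 member introns 140 in 35 genes could be tested, and most of the other 45 had too few spliced reads. The median change in inclusion was 0.04 points (percentage points, siSFSWAP minus siNT) for the members and -0.52 points for all 10155 tested introns. Inclusion was lower in siSFSWAP for 67 of 140 members (47.9%) and for 6212 of 10155 introns (61.2%).

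A call on an intron or exon needed both a mean change of 20 points or more and an adjusted p no higher than 0.05. Of the 140 member introns 0 were called lower and 1 higher by the quasi-binomial F test. Over all tested introns 1.61% were called lower and 0.148% higher. At an unadjusted p under 0.05 there were 23 of 140 members and 1605 of all 10155 introns, a similar share. By the adjusted p alone 3 members were lower and 2 higher, against 2.86% and 0.364% of all tested introns. With limma on the log2 odds 0 members were called in either direction. When siNT library a was left out 3 were called higher, in EIF3I and EIF4A1, and 1 lower, in EIF4G3. With siNT library b or any one siSFSWAP library left out 0 were called. The shares over all introns in those fits are not given here.

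Most member introns were almost fully spliced, with siNT inclusion under 10% for 85 of 140. A further 15 had siNT inclusion above 90%; in these the removal of the listed intron is the rare form. Of the 40 between 10 and 90%, 17 were lower in siSFSWAP and 23 higher, with a median change of 0.67 points. Some of these introns overlap and share reads, so they are not independent. A 772-nt and a 903-nt intron of EIF3B had the same inclusion reads and changed by 4.55 and -4.20 points. All 3706 introns in that range had a median change of -4.69 points, and 71.2% of them were lower. Without siNT library a these medians were 0.14 points for the members and -6.33 points for all. The plot of the cumulative distributions shows the member introns centred at 0 and all introns shifted to the left.

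**Figure D1:**
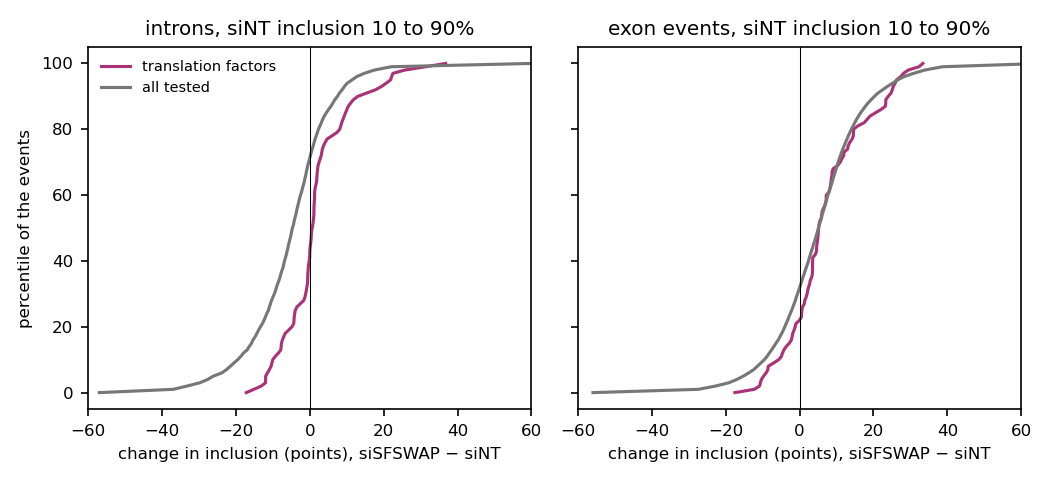
Cumulative distribution of the change in inclusion (x axis, percentage points, siSFSWAP minus siNT, drawn to 60 points on either side) against the percentile of the events (y axis), for events with a siNT inclusion of 10 to 90%. Left, 40 member introns and 3706 tested introns, with medians of 0.67 and -4.69 points. Right, 86 member exon events and 12491 tested exon events, with medians of 5.16 and 5.09 points.

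Member introns had a median length of 197.5 nt and a median GC content of 47.8%, against 161 nt and 55.4% for all tested introns. The 163 introns called lower in the whole table had medians of 127 nt and 64.7% GC, and a median siNT inclusion of 51.1%. The median siNT inclusion was 5.83% for member introns and 8.78% for all tested introns. Member introns were read more deeply, with a median of 535 reads per library against 98.7.

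The 1 called member intron belonged to EIF3I, a WD-repeat subunit of eIF3. It lies at chr1:32224476-32226402, is 1927 nt long and spans exon 5 of the gene, so its spliced form is the junction that leaves out exon 5. Its inclusion was 37.2%, 33.3% and 31.2% in the siNT libraries, in the order a, b, c used throughout, and 75.8%, 77.8% and 58.6% in siSFSWAP. The groups did not overlap, the change was 36.8 points, and the adjusted p was 0.0292. It rested on a mean of 38.2 reads per library, and its adjusted p rose to 0.116 without siNT library b, to between 0.0938 and 0.233 without any one siSFSWAP library and to 0.133 with limma on the log2 odds. The spliced form was counted in 27, 26 and 22 reads in siNT and in 4, 3 and 6 in siSFSWAP.

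Another EIF3I intron, the last of the gene (95 nt), went the other way. Inclusion of it was 5.74%, 8.49% and 7.99% in siNT and 3.77%, 3.41% and 1.56% in siSFSWAP. All siSFSWAP libraries were below all siNT libraries, with a change of -4.49 points (adjusted p = 0.0346). Over the gene, 6 of 10 tested EIF3I introns were lower and 4 higher in mean inclusion.

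EIF3G encodes the RNA-binding subunit of eIF3. Its intron 9 was kept in 3.92%, 11.3% and 13% of the siNT signal and in 2.14%, 2.38% and 4.29% of the siSFSWAP signal. Library a of siNT lay within the siSFSWAP range, so the groups overlapped. The change was -6.48 points (adjusted p = 0.0495), and it was -9.23 points without siNT library a, with an adjusted p of 2.92e-23. That fit kept only siNT libraries b and c, so it leaves out most of the siNT spread. Without any one of the other libraries the adjusted p was 0.116 to 0.353.

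The eIF4A helicases unwind the mRNA leader and are made from EIF4A1 and EIF4A2. Intron 9 of EIF4A1 (chr17:7577917-7578164, 248 nt) had an inclusion of 5.32%, 5.88% and 6.43% in siNT and 4.16%, 3.91% and 4.31% in siSFSWAP. The groups did not overlap, and the change was -1.75 points (adjusted p = 0.0321). Intron 6 of EIF4A2 (chr3:186786274-186786501, 228 nt) had 4.19%, 3.85% and 4.71% in siNT and 7.73%, 9.86% and 9.77% in siSFSWAP. It was higher in all 3 siSFSWAP libraries, by 4.87 points (adjusted p = 0.0366). All 7 tested EIF4A2 introns had a higher mean in siSFSWAP, by 1.02 to 8.67 points, of which 1 passed the adjusted p. Of the 7 EIF4A1 introns 4 were lower and 3 higher. Without each library in turn the adjusted p of the EIF4A1 and EIF4A2 introns rose to as much as 0.232 and 0.205.

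The remaining named introns did not pass the adjusted p. EIF2A, an alternative initiator tRNA binding protein, had an 87-nt intron with mean inclusion of 98.3% ± 1.52 in siNT and 90.4% ± 3.83 in siSFSWAP (SD, n = 3 each, adjusted p = 0.0644). Removal of that intron was read only 1, 3 and 1 times in siNT and 10, 3 and 7 times in siSFSWAP. An 83-nt form with the same start went the other way, with means of 87.8% and 89.7% (adjusted p = 0.903). For intron 12 of EIF2B5, the catalytic subunit of eIF2B, the means were 10.2% ± 0.846 and 19.7% ± 5.71 (adjusted p = 0.103). A 1066-nt intron of the eIF3 subunit gene EIF3E had means of 83.0% and 95.3% (adjusted p = 0.226). Its spliced form was rare, with 8, 3 and 4 reads in siNT. The 1059-nt intron 12 of 12, which shares an end with it, had 1069, 367 and 347 spliced reads in siNT. That intron was almost fully spliced, with mean inclusion of 1.88% in siNT and 3.12% in siSFSWAP (adjusted p = 0.238).

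Some of the most deeply read introns also did not pass the adjusted p. Intron 6 of EEF1A1, the gene of the main tRNA-delivering factor, was read by a mean of 30905 reads per library. It was kept at 12.1%, 11.1% and 11.2% in siNT and at 11.2%, 11% and 10.6% in siSFSWAP. The groups overlapped, and the change of -0.53 points had an adjusted p of 0.184. Intron 16 of EIF4G2 had means of 0.488% and 0.841% (adjusted p = 0.181), and intron 2 of EIF1, the start codon selection factor, had means of 1.10% and 1.86% (adjusted p = 0.253).

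**Figure D2:**
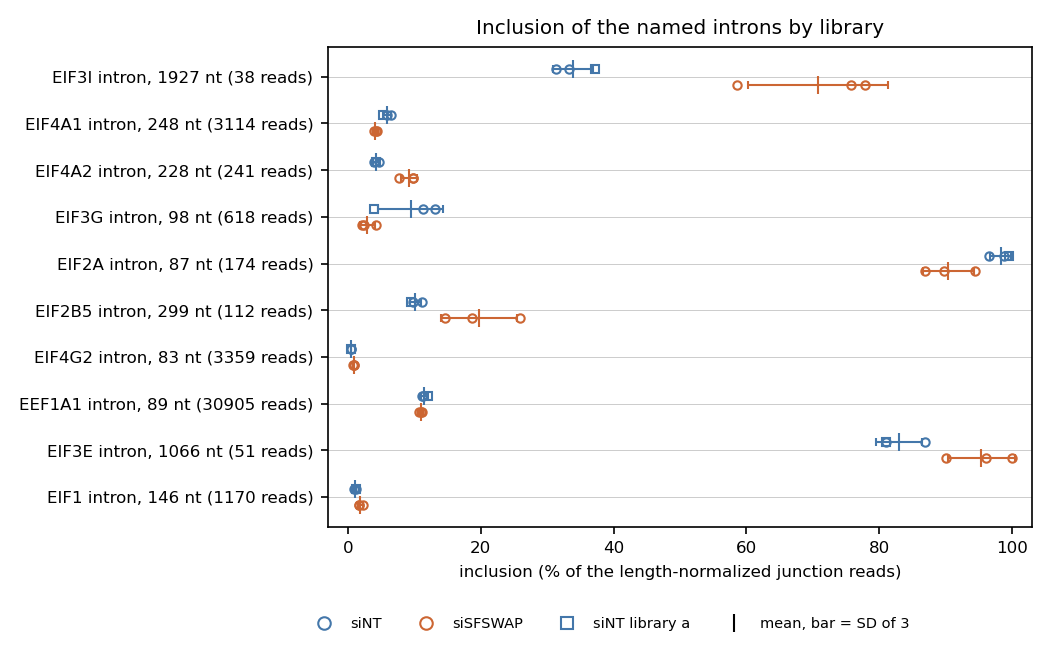
Inclusion (x axis, %) of the 10 named member introns (rows, with length and mean reads per library) in each siNT and siSFSWAP library. Open symbols are libraries, squares mark siNT library a, and ticks with bars are means ± SD of 3. The 1927-nt EIF3I intron is the row where the groups lie farthest apart, at 31.2% to 37.2% and 58.6% to 77.8%.

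Most of the skipped exon events of translation factor genes that passed the adjusted p moved toward inclusion. Of 986 member exon events 517, on 445 exons in 54 genes, could be tested, and 408 of the other 469 had under 5 skipping reads in all. Of the 517, 6 were called higher and 0 lower, against 1.44% and 0.655% of all 48100 tested exon events. Mean inclusion was lower for 41.4% of the members and 42.5% of all events. An unadjusted p under 0.05 was reached by 93 of 517 members and 9545 of all 48100 events. By the adjusted p alone 24 members were higher and 8 lower, against 3.25% and 2.17% of all tested events. With limma on the log2 odds 1 member was called, an EIF4B event. Without siNT library a, 13 were called higher, and without siNT library b or any one siSFSWAP library 2 or 3 were. The shares over all exon events in those fits are not given here.

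Many events of this table share reads. The 32 members past the adjusted p lay in 14 genes and were counted against only 15 skipping junctions, and the 6 called ones against 4. Of the 86 member events with a siNT inclusion of 10 to 90%, 67 were higher in siSFSWAP (77.9%), with a median change of 5.16 points. Over all 12491 events in that range 68.1% were higher, with a median of 5.09 points. Without siNT library a these medians were 8.49 and 6.35 points.

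EIF3K encodes the smallest subunit of eIF3, and its exon 6 was one of the 6 called events. The exon was included in 69.0%, 49.6% and 51.5% of the siNT signal and in 81.7%, 81.0% and 81.2% of the siSFSWAP signal. All siSFSWAP libraries were above all siNT libraries, and siNT library a was the siNT library nearest to them. The change was 24.6 points (adjusted p = 0.000243) and 30.7 points without siNT library a. It passed without each library in turn, with adjusted p up to 0.0382, and did not pass with limma on the log2 odds (adjusted p = 0.121). The exon of 78 nt, shown above, lies in the coding region, and its length is a multiple of 3.

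EIF4G1 encodes the scaffold that joins the cap-binding protein, the helicase and eIF3, and 4 of the 6 called events lie at its 5′ end. They share a donor, the end of the exon at chr3:184314674, and rest on 2 skipping junctions. The first joins that exon directly to exon 5 at base 184317321, and was read 38, 40 and 47 times in siNT and 8, 10 and 14 times in siSFSWAP. The second joins it to base 184317717, and was read 30, 26 and 14 times in siNT and 6, 2 and 2 times in siSFSWAP. These are reads not scaled to depth, and for both junctions each siSFSWAP library had fewer than any siNT library. The junction from exon 3 to exon 4, which these events do not count, was read 940, 400 and 298 times in siNT. The EIF4G1 inclusions below are therefore relative to rare junctions and are not shares of all transcripts.

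Against the first junction, exon 3 (94 nt, chr3:184315763-184315856, across the start of the coding region in annotated transcripts) had an inclusion of 67.9%, 62.1% and 51.7% in siNT and 86.7%, 81.2% and 79.5% in siSFSWAP. The change was 21.9 points (adjusted p = 0.0108). A 395-nt form of the same exon, not in the annotation, rose by 25.3 points (adjusted p = 0.00825). Exon 4 of 87 nt, shown above, rose from 93.2%, 83.5% and 77.1% to 97.6%, 95.7% and 93.9%, by 11.1 points (adjusted p = 0.0348), short of the 20 points of a call.

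Against the second junction, exon 2 (57 nt, chr3:184315489-184315545, in the 5′ leader) had 76.6%, 54.5% and 62.6% in siNT and 87.5%, 94.7% and 95.7% in siSFSWAP. The groups did not overlap, and the change was 28.1 points (adjusted p = 0.0101). Exon 3 against this junction rose by 32.1 points (adjusted p = 0.0269), on a mean of 46.7 reads. Of the 6 fits that leave out 1 library, the call on exon 3 against the first junction was lost in 5 and held only without siNT library a, exon 2 and exon 3 against the second junction were each lost in 3, and the 395-nt form was lost in 1. The adjusted p reached 0.191, and all 4 calls were lost with limma on the log2 odds.

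EIF4B encodes an RNA-binding protein that stimulates the eIF4A helicase. A 180-nt form of 1 of its exons that is not in the annotation (chr12:53028015-53028194) had 79.7%, 68.9% and 66.7% inclusion in siNT and 100% in all 3 siSFSWAP libraries. The change was 28.3 points (adjusted p = 0.0210). These inclusions are relative to a rare skipping junction and are not shares of all transcripts. The junction of intron 7, which ends where this exon starts, was read 2717, 822 and 857 times in siNT. This event does not count it. The depth of the event was low: skipping was read 6, 7 and 5 times in siNT and 0 times in siSFSWAP, where a count of 0 allows a skipping share of up to 22.2%, 26.1% and 16.7% by counting error alone. The call was lost without siNT library b or any one siSFSWAP library. Longer forms against the same skipping junction had siNT means of 96.2% and 98.2% and rose by 3.83 and 1.77 points.

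Other members of the eIF4 group changed by less than 20 points. EIF4H, a partner of the helicase related to EIF4B, has an exon 5 of 60 nt, shown above, that separates its long and short proteins. It was included at 61.7%, 62.4% and 60.5% in siNT and at 73.8%, 77.5% and 72.7% in siSFSWAP. The spread within each group was small beside the change of 13.2 points (adjusted p = 0.000539), which passed the adjusted p without each library in turn.

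EIF4G2 (also DAP5) encodes an EIF4G1 relative that lacks the cap-binding partner's site. Exon 14 of 22, shown above, was less included in siSFSWAP. Inclusion was 91.4%, 91.2% and 94.1% in siNT and 87.8%, 84.9% and 83.8% in siSFSWAP. All siSFSWAP libraries were lower, with a change of -6.78 points (adjusted p = 0.000587), and at a mean of 2727 reads the result passed without each library.

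In EIF4A1, the junction that leaves out exon 10 altogether was read 52, 99 and 91 times in siNT and 17, 21 and 16 times in siSFSWAP. The 18-nt form of the exon, which starts at the second acceptor within it, had an inclusion of 93.8%, 83.8% and 82.6% in siNT and 96.8%, 94.3% and 95.5% in siSFSWAP. The change was 8.79 points (adjusted p = 0.0109, and up to 0.192 without a library). The full exon of 80 nt was at 97.3% ± 1.51 and 99.2% ± 0.262 (SD, n = 3 each), a change of 1.97 points (adjusted p = 0.0212) with overlap between the groups. In EIF4G3 an exon of 114 nt, exon 6 of 37, rose from a mean of 8.38% to 14.6% (adjusted p = 0.0386).

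In the eIF3 group 10 of 132 tested events rose past the adjusted p and 0 fell, against 3.25% higher and 2.17% lower of all tested events. EIF3I gave 5 of the 10, all forms of exon 5 counted against the junction that also makes up the spliced form of its called intron. The 113-nt form had 93.7%, 90.6% and 90.4% in siNT and 98.5%, 98.4% and 97.3% in siSFSWAP, a change of 6.53 points (adjusted p = 0.00816, and up to 0.0849 without a library). The full exon of 150 nt rose from 96.0% ± 1.08 to 99.1% ± 0.337 (SD, n = 3 each, adjusted p = 0.0152).

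EIF3M encodes a small eIF3 subunit, and its exon 3 of 139 nt, shown above, was measured against a rare junction that passes over exon 4 as well. Relative to that junction its inclusion was 14.9%, 10.7% and 6.33% in siNT and 28.9%, 31.2% and 26.3% in siSFSWAP. These are not shares of all transcripts: the junction from exon 3 to exon 4, which this event does not count, was read 1170, 518 and 430 times in siNT, against 123, 54 and 37 reads of the rare junction. The groups did not overlap, and the change was 18.1 points (adjusted p = 0.00823). Without siNT library a it was 20.2 points and met both thresholds of a call, while without siSFSWAP library a or b the adjusted p was 0.0760 or 0.0606. The length of the exon is not a multiple of 3.

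Among the elongation factors the changed exon was in EEF1D, which encodes the delta subunit of the eEF1B exchange factor. The 72-nt exon 5 of 10, at chr8:143586219-143586290, was included at 94.2%, 90.4% and 91.7% in siNT and at 85.9%, 82.9% and 77.5% in siSFSWAP. All siSFSWAP libraries were lower, with a change of -9.97 points (adjusted p = 7.04e-05), the smallest adjusted p among the member exon events by this test and 0.263 with limma on the log2 odds. The 98-nt form of the exon fell by 17.5 points (adjusted p = 0.000112), and by 20.7 points without siSFSWAP library a, when it was called. No exon of EEF1A1 or EEF2 passed the adjusted p, and their 6 and 17 tested exon events stayed within 0.16 points of the siNT mean.

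EIF1AX, which scans for the start codon with EIF1, lost a little of exon 4. The 68-nt form, not in the annotation, was at 99.6%, 99.4% and 99.4% in siNT and 98.7%, 96.3% and 92.4% in siSFSWAP (change -3.64 points, adjusted p = 0.0238). The 51-nt exon 4 of 7, shown above, fell by 1.81 points against the same junction (adjusted p = 0.0258). That junction was read 3, 2 and 2 times in siNT and 5, 8 and 19 times in siSFSWAP, and the adjusted p of the 68-nt form reached 0.266 in the fits that left out 1 library.

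EIF2AK2 encodes PKR, the kinase that double-stranded RNA switches on to phosphorylate eIF2, and 3 forms of an exon in its 5′ leader fell by 17.9 to 19.9 points. Exon 2 of 17 was at 93.0%, 87.3% and 100% in siNT and at 69.2%, 76.8% and 77.8% in siSFSWAP. The groups did not overlap (adjusted p = 0.0402). Its skipping junction was read at most 4 times in a siNT library and 6 to 14 times in a siSFSWAP library. These forms and the EIF4G3 exon fall outside the naming rule and were taken up after their values were seen.

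**Figure D3:**
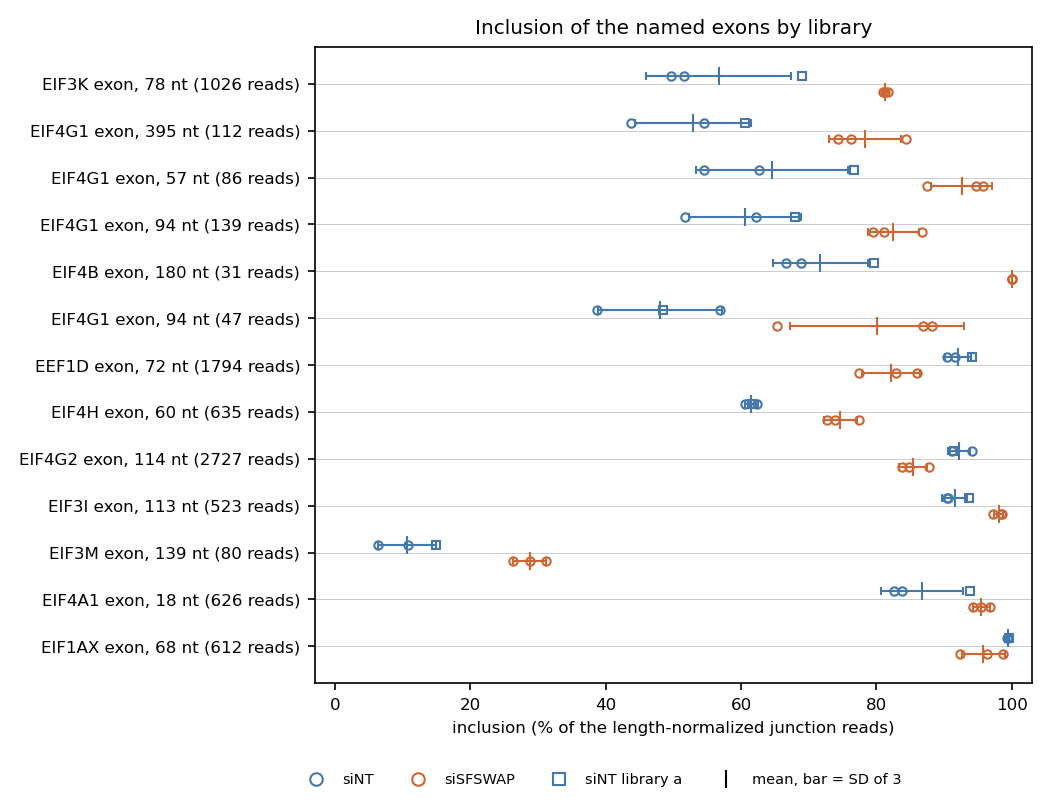
Inclusion (x axis, %) of the 13 named member exon events (rows, with exon length and mean reads per library) in each siNT and siSFSWAP library, with symbols as in the plot of introns. The EIF3K exon is at 49.6% to 69.0% in siNT and 81.0% to 81.7% in siSFSWAP, and the EEF1D, EIF4G2 and EIF1AX exons are lower in siSFSWAP.

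Spliced reads of a gene were summed over its exon events, 1 event per exon, as CPM of all such reads, and compared with limma on the log2 scale after adding 0.5. Such sums reflect RNA amount and splicing together, and in bulk libraries fewer cells with an RNA and less RNA per cell cannot be told apart. Of 63 member genes measured by exon events 61 were tested. Spliced reads fell for 17 of them and rose for 3, against 15.6% lower and 14.7% higher of all 10780 tested genes. In shares this was 27.9% of the member genes lower and 4.92% higher. The median log2 change was -0.14 for the members and -0.0047 for all tested genes, and 46 of 61 members had a lower mean. Without siNT library a 29 members fell and 9 rose, but the shares over all genes in that fit are not given here. The number that fell was 11 when siSFSWAP library b or c was left out, and the number that rose was 1 when library c of either group was.

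All 3 subunits of eIF2, the carrier of the initiator tRNA, fell, against 15.6% lower of all tested genes. EIF2S1, the alpha subunit that the stress kinases phosphorylate, had 37.7, 59.9 and 58.4 CPM in siNT and 29.1, 29.0 and 28.6 in siSFSWAP. Its groups did not overlap, and siNT library a lay between the others and the siSFSWAP libraries (log2 change -0.80 ± 0.16, adjusted p = 0.00359). EIF2S2, the beta subunit, had 327, 375 and 374 in siNT and 265, 288 and 279 in siSFSWAP (log2 change -0.37 ± 0.08, adjusted p = 0.00588). The gamma subunit EIF2S3 had 1238, 1205 and 1170 against 978, 984 and 967 (log2 change -0.30 ± 0.06, adjusted p = 0.00378). For all 3 subunits the siSFSWAP libraries lay wholly below the siNT libraries. The errors of log2 changes are standard errors throughout.

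Of the 5 eIF2B genes 2 fell and 0 rose, against 15.6% lower and 14.7% higher of all tested genes. EIF2B1, the alpha subunit of eIF2B, had 92.3, 123 and 122 CPM in siNT and 68.6, 59.1 and 64.9 in siSFSWAP, without overlap (log2 change -0.80 ± 0.12, adjusted p = 0.00111). EIF2B3 fell by 0.26 on the log2 scale (adjusted p = 0.0389), and EIF2B2, EIF2B4 and EIF2B5 did not pass the test. None of the 4 eIF2 kinase genes was called, with log2 changes from -0.19 to 0.16.

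EEF1A2 had the largest change of the 61 tested genes. It encodes the second form of the tRNA-delivering factor, known from neurons and muscle and also made by some cell lines. It had 159, 161 and 163 CPM in siNT and 75.8, 79.0 and 63.0 in siSFSWAP. The siSFSWAP mean was 45.1% of the siNT mean, far outside the spread of either group (log2 change -1.15 ± 0.10, adjusted p = 0.000161), and the log2 change stayed between -1.21 and -1.05 without each library in turn. Its retained intron was too thinly read to be tested.

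EEF1A1, the widely made form, had 9431, 6910 and 7158 CPM in siNT and 8902, 7904 and 8916 in siSFSWAP. The groups overlapped because of siNT library a (log2 change 0.14 ± 0.10, adjusted p = 0.303), and without that library the log2 change was 0.28 (adjusted p = 0.000614). EEF2, the translocating factor, had 11940, 11413 and 11946 in siNT and 11595, 11825 and 12856 in siSFSWAP. Its log2 change was 0.04 ± 0.05 (adjusted p = 0.625), and the sign turned to -0.01 without siSFSWAP library c and to -0.06 in the retained intron table. The other 5 elongation factor genes were not called, with EEF1G, the gamma subunit, at a log2 change of 0.17 (adjusted p = 0.0618) and EEF1E1 at -0.27 (adjusted p = 0.171).

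The pair of eIF5A genes moved apart. eIF5A helps the ribosome through stretches that form peptide bonds slowly. EIF5A had 634, 755 and 736 CPM in siNT and 511, 539 and 425 in siSFSWAP (log2 change -0.53 ± 0.10, adjusted p = 0.00283). EIF5A2 had 2.66, 3.21 and 3.07 in siNT and 5.21, 4.56 and 4.73 in siSFSWAP (log2 change 0.62 ± 0.16, adjusted p = 0.0152). In each gene the groups did not overlap. EIF5A2 rested on a mean of 94.5 reads per library, and its adjusted p was 0.0620 without siSFSWAP library a. Levels of different genes are not compared here, since these sums depend on how many exons of a gene the table holds.

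**Figure D4:**
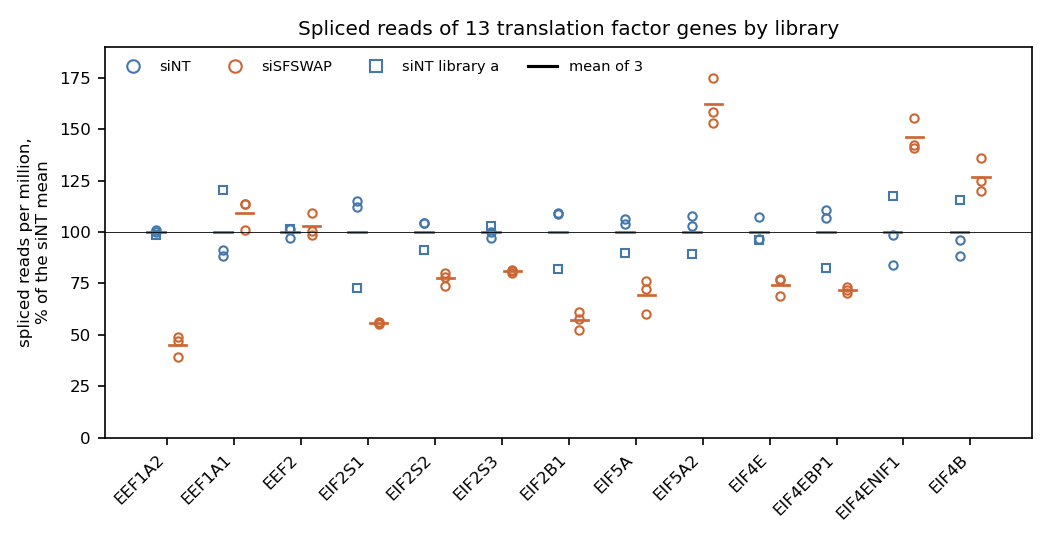
Spliced reads (CPM) of 13 translation factor genes (x axis) in each library, as a percentage of the siNT mean of the gene (y axis, from 0). Open symbols are libraries, squares mark siNT library a, and horizontal lines are means of 3. EEF1A2 lies at 45.1% of the siNT mean in siSFSWAP, EIF2S1 at 55.6% and EIF5A2 at 162%.

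Of 12 tested eIF3 subunit genes 3 fell and 0 rose, against 15.6% lower and 14.7% higher of all tested genes. EIF3A, the largest subunit, had 682, 691 and 700 CPM in siNT and 560, 542 and 551 in siSFSWAP (log2 change -0.33 ± 0.06, adjusted p = 0.00330). EIF3B, its partner in the core, fell by 0.46 on the log2 scale (adjusted p = 0.00470) and EIF3L by 0.23 (adjusted p = 0.0275). EIF3K, with the called exon, and EIF3I, with the called intron, had log2 changes of -0.09 and -0.08 that did not pass the test. EIF3C lies beside the near-identical EIF3CL and was in the retained intron table only.

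The eIF4 group was mixed, with 3 of 10 genes lower and 1 higher, against 15.6% and 14.7% of all tested genes. EIF4E, the cap-binding protein, had 60.5, 67.4 and 60.8 CPM in siNT and 48.2, 48.4 and 43.5 in siSFSWAP, with no overlap (log2 change -0.43 ± 0.10, adjusted p = 0.00774). EIF4G2 and EIF4G3 fell by 0.24 and 0.25 on the log2 scale (adjusted p = 0.0126 and 0.0217). EIF4B rose, from 917, 698 and 762 to 989, 949 and 1077 (log2 change 0.35 ± 0.09, adjusted p = 0.0163). The groups did not overlap, and its adjusted p was 0.0520 to 0.0821 without siNT library b or c or siSFSWAP library c.

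EIF4A1, EIF4A2 and EIF4G1 were not called. Their log2 changes were -0.11 ± 0.07 (adjusted p = 0.271), -0.16 ± 0.11 (adjusted p = 0.285) and -0.14 ± 0.06 (adjusted p = 0.115). Without siNT library a EIF4A1 was at -0.19 (adjusted p = 0.00322) and EIF4G1 at -0.17 (adjusted p = 0.0211). By the skipping reads of the retained intron table EIF4G1 fell by 0.24 (adjusted p = 0.0202), and EIF4A1 and EIF4A2 did not pass.

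The genes of proteins that hold EIF4E went in opposite directions. EIF4EBP1, the repressor that mTOR phosphorylates, had 11.2, 15.0 and 14.5 CPM in siNT and 9.92, 9.54 and 9.71 in siSFSWAP (log2 change -0.45 ± 0.14, adjusted p = 0.0334). The call on EIF4EBP1 rests on 1 exon and was lost in 5 of the 6 fits without a library, the exception being that without siNT library a. EIF4ENIF1, the protein that carries EIF4E into the nucleus and into P bodies, had 16.6, 13.9 and 11.9 in siNT and 19.9, 20.1 and 22.0 in siSFSWAP (log2 change 0.54 ± 0.14, adjusted p = 0.0128). Its adjusted p was 0.0526 when siNT library c was left out and 0.0629 when siSFSWAP library c was.

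Of 9 genes for start site selection and subunit joining 3 fell and 0 rose, against 15.6% and 14.7% of all tested genes. EIF2A had a log2 change of -0.31 (adjusted p = 0.0126), EIF6, which keeps free large subunits apart from small ones, -0.31 (adjusted p = 0.00949), and EIF1AX -0.27 (adjusted p = 0.0253). EIF2A was at an adjusted p of 0.0512 without siSFSWAP library b or c. None of the 5 genes that modify elongation factors passed the test, with EEF2K, the kinase of EEF2, at a log2 change of 0.56 (adjusted p = 0.0829). Another scaling of the libraries, by the median of ratios, gave the same counts of 17 lower and 3 higher.

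**Figure D5:**
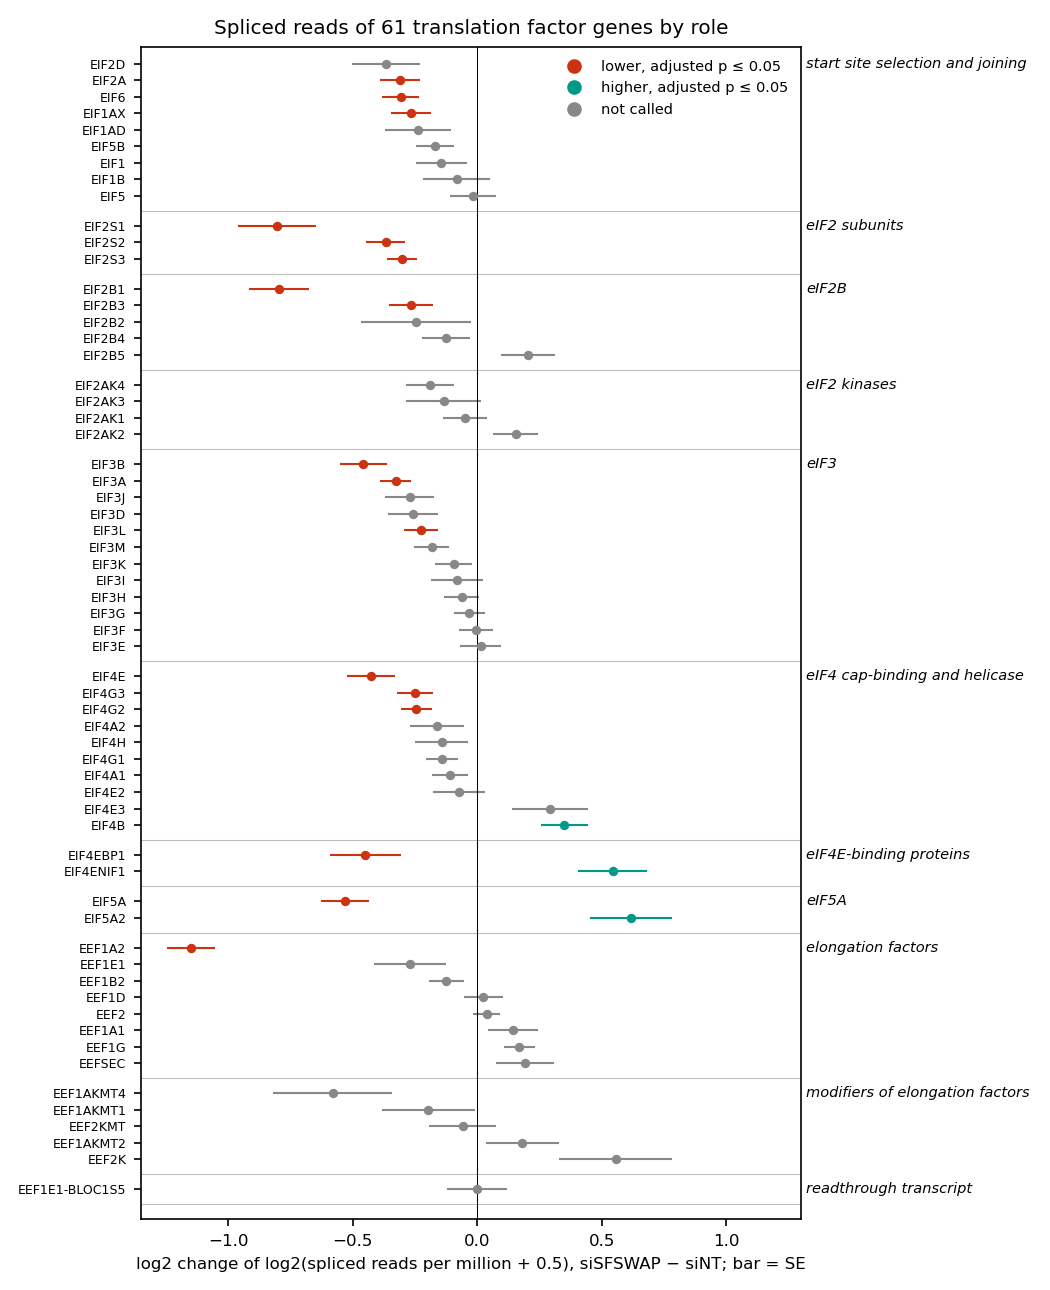
Change in spliced reads (x axis, log2 scale after adding 0.5 to the CPM, siSFSWAP minus siNT) of the 61 tested translation factor genes (rows), grouped by role, with bars for the standard error. Colours mark the 17 genes lower and the 3 genes higher at an adjusted p of at most 0.05. All 3 eIF2 subunits lie below 0, and EEF1A2 is farthest to the left at -1.15.

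Skipping reads of the retained intron table gave a separate but overlapping view of 33 member genes. There 7 fell and 1, EIF4B, rose. The share over all genes in this view is not given here, so these counts have no background. Of 6 genes called lower in the exon table and tested in both, 5 had a lower mean also here and 4 passed the test: EIF3A, EIF3B, EIF4G2 and EIF5A. EEF1A2 and EIF2B1 had too few such reads to be tested, and EIF6, the other gene with a lower mean, had an adjusted p of 0.0970. EIF4G3 went the other way, with a log2 change of 0.37 (adjusted p = 0.282). The other genes that fell in this view, EIF2D, EIF3M and EIF4G1, were not called by their exon events.

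Other translation genes, which are no members, were called in both directions. Of 35 tested genes for termination, recycling, control and mitochondrial translation, 12 fell and 6 rose, with a median log2 change of -0.16. Over all tested genes 15.6% were lower and 14.7% higher. Both release factors fell, ETF1 by 0.63 and GSPT1 by 0.37 on the log2 scale (adjusted p = 0.000853 and 0.00221), as did the recycling factor ABCE1 by 0.46 (adjusted p = 0.00390) and the rescue factors HBS1L by 0.43 and PELO by 0.46. The mitochondrial factors GFM1, GFM2 and MTRF1 fell by 0.52, 0.66 and 0.60, while TUFM rose by 0.31. ATF4, the transcription factor induced through eIF2 phosphorylation, fell by 0.46 (adjusted p = 0.00937), and RPS6KB1, DDX3X and MKNK1 fell by 0.39, 0.31 and 0.33. DHPS, the enzyme that starts the hypusine modification of eIF5A, rose by 0.80 (adjusted p = 0.00245), and DPH1, for the diphthamide of EEF2, by 0.82, RPS6KB2 by 0.51, DHX29 by 0.37 and MKNK2 by 0.26.

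In the same list 1 of 94 introns was called lower and 4 of 274 exon events higher, close to the 1.61% and 1.44% over all tested introns and exon events. The intron, of 135 nt in the eIF4E kinase gene MKNK2, had 39.4%, 55.9% and 63.6% inclusion in siNT and 25.9%, 28.0% and 35.0% in siSFSWAP (change -23.4 points, adjusted p = 0.0331). Of the exon events 3 were forms of 1 exon of LARP1, the repressor of 5′ TOP mRNAs that include those of the elongation factors. Its 123-nt form was at 85.1%, 71.8% and 62.6% in siNT and at 94.7%, 94.8% and 97.0% in siSFSWAP (adjusted p = 0.000595). The fourth was a 91-nt exon of the S6 kinase gene RPS6KB2, at 78.2%, 61% and 47.0% in siNT and 91.7%, 90% and 87.5% in siSFSWAP (adjusted p = 0.00238).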

How the data were processed

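Polyadenylated RNA of 6 cultures was sequenced from 1 end. Per the submitters' processing notes, the authors used cutadapt 1.9.1 for trimming and STAR 2.7 for alignment, on GRCh38, before rMATS counted junction reads. The handling of strand and of multi-mapping reads is not stated in the methods read here, which bears on genes with copies, such as EEF1A1, EIF5A and EIF3C. The deposited tables list unnormalised junction counts, comma-joined over 3 libraries, together with inclusion fractions, p-values, FDR values and inclusion differences, none of which was used. The list taken as siNT follows from how the study defines that difference, and SFSWAP reads were checked against it. No per-sample column was left unmapped.

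Members and gene lists were chosen with earlier results of these data known. Events needed a mean of 20 reads, and 5 reads of each form over the 6 libraries. A two-sided quasi-binomial F test was run on the counts, with dispersions moderated by limma 3.58.1 (R 4.3.3) and floored at 1, and Benjamini-Hochberg adjustment over each table. Genes were compared with limma on log2(CPM + 0.5). On simulated data 48 of 100 introns and 37 of 100 exon events changed by 0.2 passed the adjusted p. For a change of 0.35 these were 89 and 79 of 100. In the same data 16 unchanged introns and 20 unchanged exon events also passed the adjusted p, and 0 and 3 were called. Among simulated events past the adjusted p, unchanged ones were thus a larger share than the threshold of 0.05 allows for. Results that rest on the adjusted p alone are therefore less secure than calls. Intervals and floors cover counting error only. Exon numbers, GC content and sequences came from GENCODE 44 and GRCh38, and coordinates are 1-based.

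Named were the called members, then members in order of adjusted p, 1 per gene, with a mean of at least 50 reads until 10 genes per table were named, the 12 largest called gene changes in each direction, 10 defining factors, and called genes of the other list. Further forms of these exons and other members were named after their values were seen. Alternatives were a 50-read minimum, limma on log2 odds, no dispersion floor, a threshold of 0.1, a pseudocount of 2, a minimum of 1 read, median-of-ratios scaling, the retained intron table and leaving out each library. Replicates are biological per the labels.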

Additional observations from a re-analysis of the deposited data

How the results depend on the processing

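No paired analysis was possible because the tables do not tie their columns to the replicate numbers that the labels give both groups. The cause of each change below was not tested. Without each library in turn, member introns called lower numbered 0 to 1 and those called higher 0 to 3. Member exon events called higher numbered 2 to 13 and those called lower 0 to 1. Member genes with lower spliced reads numbered 11 to 29 and those with higher spliced reads 1 to 9. The highest counts came without siNT library a, except that the exon event called lower came without siSFSWAP library a. No shares over all introns, exon events or genes are given for these fits, so the counts have no background. Introns called higher fell from 1 to 0 with a minimum of 50 reads, under which the EIF3I intron is not tested, and to 0 with limma on log2 odds. Exon events called higher fell from 6 to 1 with limma on log2 odds, and those called lower rose from 0 to 4 with a threshold of 0.1. The retained intron table, which tests 33 of the genes, gave 7 lower and 1 higher, with no share over all genes beside them. The SFSWAP log2 change was -1.58 to -1.23 without each library and stayed past the threshold. EEF2 changed sign, to -0.058 in the retained intron table and -0.0066 without siSFSWAP library c, against up to 0.068 without siSFSWAP library a. The call on the EIF3I intron, the only named intron with one, was lost in 5 checks. Over the same alternatives named exons lost a call 21 times and gained one 3 times, and named genes lost one 14 times and gained one 4 times. Depth was low, under 50 reads per library, for the called EIF3I intron, the EIF4B exon and 1 EIF4G1 event. The medians without siNT library a over events with 10 to 90% inclusion were an alternative chosen after seeing the data.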
